A study of Mus musculus with 9 samples.

Results

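Cathepsin G (Ctsg), myeloperoxidase (Mpo), proteinase 3 (Prtn3) and neutrophil elastase (Elane, listed under its older symbol Ela2) are the 4 genes described here. They were selected on the difference in log2 expression between the groups, being taken by symbol from the authors' deposited table of significant changes, which has 964 rows for 895 distinct gene names, out of 31648 rows on the array. Each of the 4 genes has 1 row. The table keeps rows with a two-sample p under 0.001 and a change of at least 2.0-fold, so the difference between the groups is given below as a description with no test.

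Azurophil, or primary, granules are the first granules that a developing neutrophil makes, at the promyelocyte stage, and transcription of their contents falls as the cell matures. Mpo encodes a heme enzyme that turns hydrogen peroxide and chloride into hypochlorous acid. Ctsg, Prtn3 and Elane encode related serine proteases, which are activated by cathepsin C, bound to the proteoglycan serglycin inside the granule and held in check in the cytosol by serpins. The mRNAs are therefore used as marks of immature granulocytic cells, while mature neutrophils carry the proteins with little of the mRNA.

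The study sorted CD11b+Gr1+ cells, a surface phenotype shared by neutrophils, monocytes and their immature precursors, from mouse spleens and measured their RNA on Affymetrix arrays. The tumour-bearing group was 6 single L2-Cre;p120f/f mice, in which Cre from the L2 promoter, active in the squamous lining of mouth and oesophagus, deletes both copies of the floxed gene of p120-catenin (Ctnnd1). The control group was 3 pools, each made from 3 animals without tumours that were L2-Cre;p120+/f and so carry the same Cre and 1 floxed allele. Both groups were on a mixed C57BL/6x129 background. The titles and source names gave the groups. Age, genotype and limb entries in other label fields contradict them and were not used, so no age is given here. Tumour, genotype and pooling coincide and cannot be told apart.

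Values are log2 expression as the authors normalized them. Array medians lay between 5.92 and 5.99, and the mean correlation of an array to the rest of its own group was 0.987 to 0.989 over all rows. The targeted gene Ctnnd1 and the markers of the sort, Itgam, Ly6g, Ly6c1 and Ly6c2, have no named row and were not analysed here. Only rows in the authors' table carry a gene name.

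The region around the start of each gene is shown first. Whether these sequences bear on the higher transcripts in the tumour-bearing mice was not tested, and no binding was measured. Each sequence is RefSeq's, on build GRCm38.p6, from 250 bases before the annotated start to 50 bases from it, 5′ to 3′ on the strand of the gene. Capitals mark each match to GAGGAAG, a purine-rich sequence of the type bound by PU.1, the ETS factor of the myeloid lineage. The regions are chr14:56102525-56102824 (minus strand) for Ctsg, chr11:87793534-87793833 (plus strand) for Mpo, chr10:79879417-79879716 (plus strand) for Prtn3 and chr10:79886062-79886361 (plus strand) for Elane.
Ctsg: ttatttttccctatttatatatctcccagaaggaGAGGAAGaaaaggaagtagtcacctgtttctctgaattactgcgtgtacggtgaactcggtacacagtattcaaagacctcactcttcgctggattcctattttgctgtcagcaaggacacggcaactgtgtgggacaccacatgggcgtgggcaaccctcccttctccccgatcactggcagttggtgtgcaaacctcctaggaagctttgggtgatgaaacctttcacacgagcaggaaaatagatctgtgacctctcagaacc
Mpo: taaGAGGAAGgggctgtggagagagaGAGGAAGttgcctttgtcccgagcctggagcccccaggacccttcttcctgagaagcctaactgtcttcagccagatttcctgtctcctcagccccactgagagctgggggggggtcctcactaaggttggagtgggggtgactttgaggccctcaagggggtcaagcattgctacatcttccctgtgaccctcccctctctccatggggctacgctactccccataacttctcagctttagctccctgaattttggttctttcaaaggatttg
Prtn3: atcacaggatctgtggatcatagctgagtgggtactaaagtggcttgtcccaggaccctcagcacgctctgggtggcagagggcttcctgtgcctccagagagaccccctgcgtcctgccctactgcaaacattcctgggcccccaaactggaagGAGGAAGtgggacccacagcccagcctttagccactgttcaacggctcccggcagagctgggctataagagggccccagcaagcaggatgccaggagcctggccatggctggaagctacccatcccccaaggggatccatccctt
Elane: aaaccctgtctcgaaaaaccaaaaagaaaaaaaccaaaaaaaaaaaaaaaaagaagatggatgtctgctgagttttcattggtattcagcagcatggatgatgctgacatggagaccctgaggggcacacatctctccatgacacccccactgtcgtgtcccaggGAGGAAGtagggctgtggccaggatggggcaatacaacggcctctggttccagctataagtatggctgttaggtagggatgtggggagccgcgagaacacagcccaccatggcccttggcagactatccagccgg

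GAGGAAG was present on the strand of the gene in all 4 regions, at 2 places in Mpo and 1 in each of the others. Searched on both strands, it was present in 13.6% of the 32851 promoter regions of this length in the RefSeq table. In Prtn3 and Elane its first base lay at -95 and -85 from the start (the start counted as 0), and in Ctsg and Mpo it lay farther upstream, at -216 in Ctsg and at -247 and -224 in Mpo. AACNG, the core sequence bound by MYB, also had a match in all 4 regions, but 80.3% of all promoter regions hold one. TGTGGT, a core of RUNX sites, had a match in the Ctsg region alone, on the opposite strand, and in 16.8% of all regions. TTNCNNAA, a loose C/EBP form, had no match in the 4 windows and a match in 40.7% of all regions. The motifs were searched on both strands, did not overlap each other in these regions, and were chosen with the sequences in view.

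**Figure D1:**
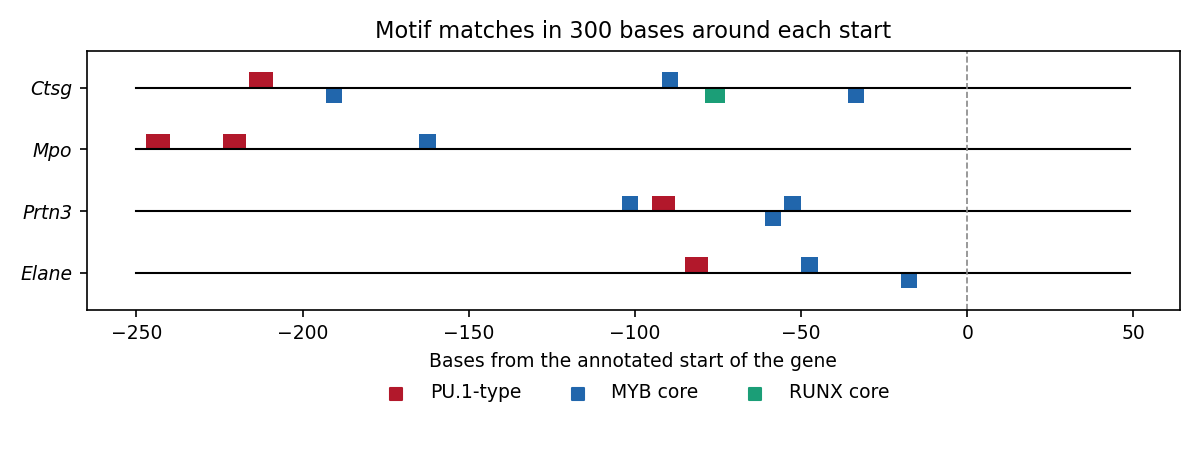
Matches to 3 motifs in the 300 bases around the annotated start of each gene (x axis, bases from the start); boxes above the line are on the strand of the gene and boxes below it on the opposite strand. The PU.1-type match lies at -95 in Prtn3 and -85 in Elane, and farther upstream, at -216 in Ctsg and at -247 and -224 in Mpo.

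Ctsg, whose protease cleaves after aromatic residues and acts on bacteria and platelets, had the largest difference of all 31648 rows. Its log2 value in the 6 tumour-bearing mice was 10.74 at the lowest, 11.33 at the median and 11.83 at the highest. In the control pools it was 6.909, 6.999 and 6.929. The pools lay within 0.09 of each other and 3.74 below the lowest mouse. Means were 11.36 ± 0.40 (SD, n = 6) and 6.95 ± 0.05 (SD, n = 3), a difference of 4.42 ± 0.22 (SE of the limma fit, as for the differences below), or 21.3-fold. That SE takes a common variance for single mice and pools, although their SDs differ here and for the other genes. In bulk RNA a smaller share of expressing cells and less RNA per expressing cell cannot be told apart.

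Mpo had values of 11.71 at the lowest, 12.34 at the median and 12.68 at the highest in the tumour-bearing mice. The pools stood at 8.47, 7.70 and 8.69, so pool 2 was the lowest and the groups were 3.02 apart at their nearest. The means were 12.31 ± 0.35 (SD, n = 6) and 8.28 ± 0.52 (SD, n = 3). The difference was 4.03 ± 0.26 on the log2 scale, 16.3-fold, the fourth largest of all rows.

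Prtn3, a protease that cleaves elastin and is the target of autoantibodies in human vasculitis, ran from 11.99 through a median of 12.52 to 12.74 in the mice. The pools stood at 9.09, 8.01 and 8.85, again with pool 2 lowest. The means were 12.47 ± 0.26 (SD, n = 6) and 8.65 ± 0.57 (SD, n = 3), a difference of 3.82 ± 0.25 or 14.1-fold.

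Elane, the other elastin-cleaving protease, had 11.62 at the lowest, 12.16 at the median and 12.32 at the highest among the mice. The pools stood at 9.19, 8.03 and 9.26. Pool 2 was more than 1 log2 unit below the other pools, and the lowest mouse was 2.35 above the highest pool. The means were 12.08 ± 0.25 (SD, n = 6) and 8.83 ± 0.69 (SD, n = 3), with a difference of 3.25 ± 0.28 or 9.53-fold. For each of the 4 genes all 6 mice lay above all 3 pools, as did 15.4% of all rows, while 9.39% of all rows had all mice below all pools. Nothing is read from this, since the same contrast chose the genes. Elane had the smallest difference of the 4, and 8 rows of the array, its own included, had a difference at least as large. The smallest rise that the authors' table lists is 1.0003, well below it.

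**Figure D2:**
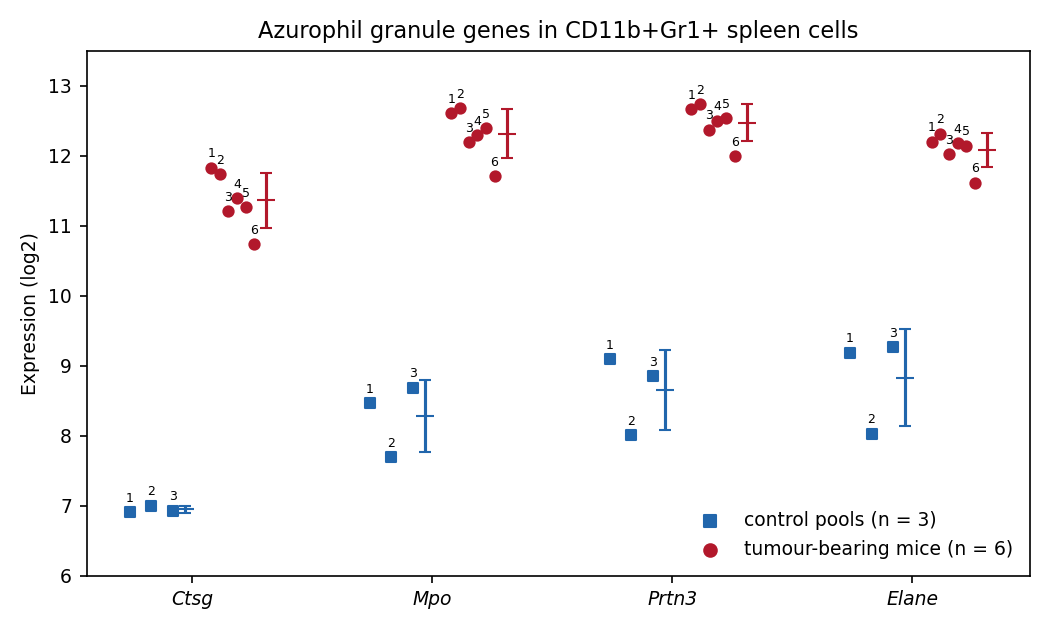
Log2 expression of Ctsg, Mpo, Prtn3 and Elane in 3 control pools (blue squares) and 6 tumour-bearing mice (red circles); small digits are the replicate numbers, and bars are mean ± SD. Mouse 6 is the lowest mouse for all 4 genes, and pool 2 is the lowest pool for Mpo, Prtn3 and Elane but the highest for Ctsg.

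Among the control pools the 4 genes did not vary alike. The SD over pools was 0.05 for Ctsg but 0.52 for Mpo, 0.57 for Prtn3 and 0.69 for Elane, against a median of 0.10 over all rows. The SDs of Mpo, Prtn3 and Elane exceeded those of 97.7%, 98.3% and 99.2% of rows, and that of Ctsg those of 25.2%. Pool 2 deviated from the pool mean by -0.59 in Mpo, -0.64 in Prtn3 and -0.80 in Elane, and by 0.05 in Ctsg. Without pool 2 the differences between the groups were 3.74 for Mpo, 3.50 for Prtn3 and 2.85 for Elane, and that of Ctsg was 4.44. The difference in spread between the genes was not tested, and no background call was made for the Ctsg row, whose values in the pools lay about 1 log2 unit above the pools' array medians of 5.92 to 5.95.

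Among the tumour-bearing mice all 4 genes followed the same order closely. The choice of the genes rested on the difference between the groups and did not use the order of mice within a group. Named genes, all chosen on that difference, varied like the 4 across the mice more often than all rows did, as given below. Correlations across the mice are therefore not fully separate from the choice. Mouse 6 had the lowest value of all 4 genes and mouse 3 the second lowest, while mice 1 and 2 had the highest values. The range over mice was 1.09 for Ctsg (2.13-fold), 0.97 for Mpo (1.96-fold), 0.74 for Prtn3 (1.67-fold) and 0.70 for Elane (1.62-fold). The SDs over mice, 0.40, 0.35, 0.26 and 0.25 in the same order, exceeded those of 94.6%, 92.2%, 85.5% and 83.3% of rows, against a median SD of 0.11. Mouse 6 was 0.62 below the group mean for Ctsg, 0.61 for Mpo, 0.47 for Prtn3 and 0.46 for Elane. Its array had a mean correlation of 0.989 with the other mice over all rows, which cannot exclude a shift in part of the genes. Arrays of different groups still correlated at 0.954 to 0.974. Of the genes listed below, mouse 6 was highest, alone or tied, for all 7 named monocyte and macrophage markers. It was lowest, alone or tied, for all 23 named mitosis genes. Whether its mixture of cells differed was not tested.

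**Figure D3:**
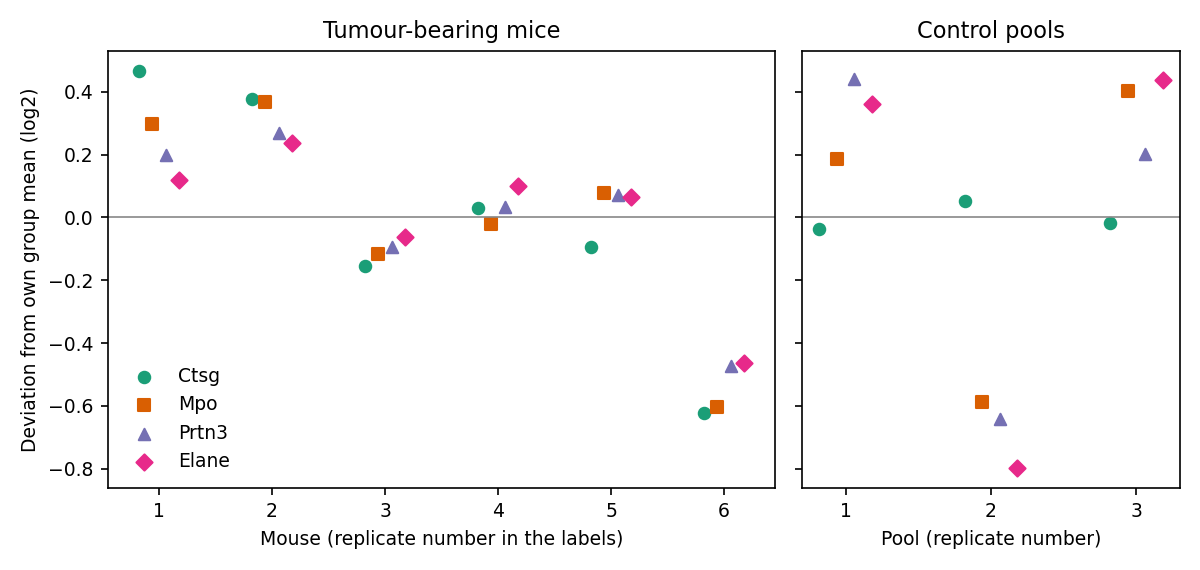
Deviation of each sample from the mean of its own group (y axis, log2) for the 4 genes, by tumour-bearing mouse (left) and control pool (right). The 4 genes deviate together in the mice, from 0.24 to 0.38 above the mean in mouse 2 to 0.46 to 0.62 below it in mouse 6, whereas in the pools Ctsg stays within 0.05 of its mean and the other genes reach -0.80 in pool 2.

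The 6 pairs of genes had Pearson correlations of 0.903 to 0.995 across the 6 mice. Mpo and Prtn3 had the highest, at r = 0.995 (exact permutation p = 0.0014, the smallest that the 720 orders of 6 mice can give) and Spearman's rho = 1.0 (exact permutation p = 0.0028). Ctsg and Elane had the lowest, at r = 0.903 (exact permutation p = 0.0069) and rho = 0.943 (exact permutation p = 0.0167). All 6 pairs passed Benjamini-Hochberg adjustment over the 34 relations computed (two-sided exact permutation tests, adjusted p = 0.0189 to 0.0283). The pairs share the same genes and mice, so they do not count as 6 separate results. By rank none of the 6 pairs passed (adjusted p = 0.081 to 0.1133 for rho, exact permutation), although each had an unadjusted p of at most 0.0333. Without the 2 mice farthest from the median, mouse 6 and either mouse 1 or mouse 2, r was 0.747 to 0.976. Leaving out 1 mouse at a time gave r of 0.774 to 0.999, with 0.774 for Ctsg and Elane without mouse 6. With 5 mice none of the pairs passed the adjustment, whichever mouse was left out (adjusted p = 0.063 to 0.3091, exact permutation). The smallest p that 5 mice allow is 0.0083.

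Set against every row that varied among the mice, Prtn3 was the row most correlated with Mpo out of 31402, and Elane was the thirty-sixth. With Prtn3, Mpo ranked 2 and Elane 5. With Ctsg, Mpo ranked 47, Prtn3 76 and Elane 304. Prtn3 and Elane are the nearest protein-coding genes to each other on chromosome 10 in the RefSeq order, whereas Mpo lies on chromosome 11 and Ctsg on chromosome 14. The arrays are shared by all rows, and these ranks are a description.

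The other named genes of the list headed azurophil granule contents were Prss57 and Ms4a3. Of these only Prss57 is taken here as a granule content. Of 16 list genes other than the 4, these 2 were named, and both rose (limma with Benjamini-Hochberg adjustment, adjusted p = 1.437e-05 for Ms4a3 and 0.0004135 for Prss57). In the test over all rows 14.3% rose, 8.83% fell and 23.2% changed in either direction. Because the authors selected every named gene for change on these samples, these counts are not independent evidence of a direction. The same holds for the counts and limma p values of every list below. The median difference of Prss57 and Ms4a3 was 2.54, beside a median of 0.02 over all rows, and is not one of granule contents alone. Prss57 encodes a further serine protease of these granules, and stood at 9.23 to 10.16 in the mice (median 9.72) and at 7.92, 8.17 and 8.28 in the pools, a rise of 1.64 ± 0.19. Its other row rose by 1.59 ± 0.22. Ms4a3, a membrane-spanning protein of granulocyte-monocyte progenitors, stood at 10.54 to 11.37 in the mice (median 11.05) and at 7.80, 7.32 and 7.68 in the pools, a rise of 3.43 ± 0.19. None of the 20 genes of activation, packaging and inhibition of these proteases, among them Ctsc (cathepsin C), Srgn (serglycin) and Serpinb1a, has a named row, and they were not analysed here.

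These genes also followed the 4 across the mice. The 891 other named genes were ordered by their Pearson correlation, over the 6 mice, with the mean of the 4 genes. B4galt6, which makes lactosylceramide, came first (r = 0.983) and Prss57 second (r = 0.982, and 0.945 for its other row). Plk4, the kinase of centriole duplication (r = 0.966), Fbxo5, an inhibitor of the anaphase-promoting complex (r = 0.966), and Plekho2 (r = 0.963) came next, followed by Ms4a3 (r = 0.952). The other rows of 2 of these genes were less alike, with r = 0.805 for Plk4 and r = -0.427 for Plekho2, so the place of Plekho2 rests on the choice of row. Plekho2 fell by 1.45 on the log2 scale in the tumour-bearing mice, and its other row fell by 1.85. Without mouse 6 the 5 genes of highest r had r of 0.892 to 0.969. Over all rows 53 of 31399 had r above 0.95, while of the named genes, chosen on the difference between the groups, 6 of 891 did. A high r was thus more frequent among genes chosen in that way. In B4galt6 the mice ran from 9.91 to 10.43 and the pools stood at 9.32, 9.03 and 8.96.

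At the other end were Abca9, an ABC transporter (r = -0.935), Chac2, which degrades glutathione (r = -0.931), Maml3, a Notch coactivator (r = -0.926), Cyp27a1, the sterol 27-hydroxylase (r = -0.925), and Pigu, a subunit of the GPI transamidase (r = -0.905). Abca9 was highest in mouse 6, at 6.72, and lay between 5.95 and 6.23 in the other mice. Without mouse 6 the r of these 5 genes was -0.832 to -0.678.

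Near Prtn3 and Elane on chromosome 10, Plppr3 and Prss57 have a named row, and both were higher. Only genes listed as changed carry a name, so whether the region as a whole rose was not tested. Plppr3, a membrane protein of the lipid phosphatase-related family, is the protein-coding gene next to Prtn3 on the side away from Elane. It stood at 8.23 to 8.71 in the mice (median 8.36) and at 7.06, 7.08 and 7.33 in the pools, a rise of 1.28 ± 0.12 (limma adjusted p = 0.0001238), and its r with the 4 genes over the mice was 0.849. Prss57 lies on the same chromosome with 4 protein-coding genes between it and Prtn3. Of these only Plppr3 has a named row, and Palm, Misp and Ptbp1 have none. Cfd, next after Elane, has no named row, and neither have the genes beside Ctsg (Mcpt8 and Gzme) and Mpo (Tspoap1 and Lpo), so they were not analysed here.

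Markers of granulocyte-monocyte progenitors and promyelocytes were compared with the 4 genes between the groups and across the mice. Of 18 genes 5 were named. Since only genes listed as changed carry a name, their passing limma was given by that choice, and 14.3% of all rows rose. All 5 rose, with a median difference of 1.61 (limma adjusted p between 1.437e-05 and 0.002). They were Ms4a3, the ficolin gene Fcnb (1.90 ± 0.14), the transcription factor gene Myb (1.61 ± 0.14), Prom1 (1.50 ± 0.09) and the cell cycle kinase gene Cdk6 (1.39 ± 0.22). The mean of the 5 genes ran from 9.41 to 9.89 in the mice and from 7.49 to 7.83 in the pools. Across the mice this mean had r = 0.957 with Ctsg, 0.961 with Mpo, 0.943 with Prtn3 and 0.870 with Elane. All 4 relations passed the adjustment over 34 relations (exact permutation, adjusted p = 0.0189 to 0.0262), but none did by rank, with rho of 0.886 to 0.943. Since the 4 genes varied together in the same mice, these are not 4 separate results. Without the 2 farthest mice r was 0.789 to 0.998, and none passed with any 1 mouse left out. With Ms4a3 removed from the list, a choice made after seeing the data, r was 0.802 to 0.907 and the relation with Ctsg no longer passed (exact permutation, adjusted p = 0.0687).

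**Figure D4:**
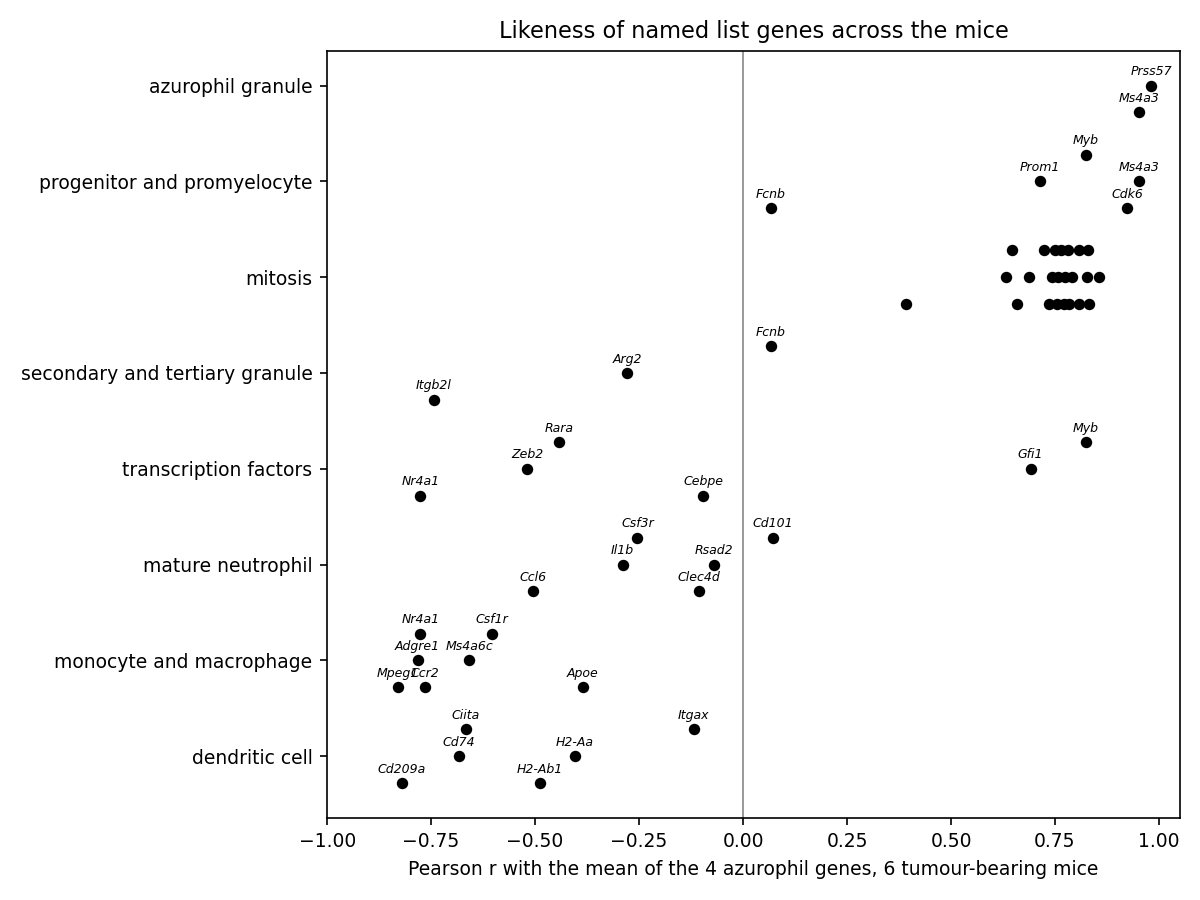
Pearson r over the 6 tumour-bearing mice between each named list gene and the mean of Ctsg, Mpo, Prtn3 and Elane (x axis), by list (y axis); each point is a gene, the 4 genes themselves left out. Prss57, Ms4a3 and Cdk6 lie above 0.92, the mitosis genes between 0.39 and 0.86, and Fcnb and Cebpe near 0.

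Within that list the genes were not alike across the mice. Cdk6 ranked 10 among the named genes by r with the 4 (r = 0.923), Myb had r = 0.825 and Prom1 r = 0.713, while Fcnb had r = 0.07. Fcnb, which encodes a ficolin, is also in the list headed secondary and tertiary granules. Its highest values were in mice 5 and 4, at 11.55 and 11.43, and not in mice 1 and 2. The list headed secondary and tertiary granules held 22 genes, of which 3 were named. They were Fcnb and, beside it, Itgb2l, an integrin chain gene (r = -0.744), and Arg2 (r = -0.278). Itgb2l and Arg2 are not taken here as granule contents, so the mean of the 3 does not stand for those granules. Of these 3, Fcnb and Itgb2l (1.09 ± 0.07) rose and Arg2 fell by 1.32 on the log2 scale, with limma adjusted p of 2.906e-05 to 0.0002098. The mean of the 3 had r between -0.416 and -0.0778 with the 4 genes (unadjusted exact permutation p of at least 0.4167), and without mouse 1 r was -0.139 with Ctsg, 0.02 with Mpo, 0.06 with Prtn3 and 0.07 with Elane. Whether these correlations differ from those of the progenitor list was not tested.

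Among transcription factors known to act on granule genes or to set myeloid fate, 6 of 20 were named, of which 3 rose and 3 fell, with a median difference of -0.06 and limma adjusted p of 1.464e-05 to 0.0003347. Myb rose from 7.39, 7.03 and 7.39 in the pools to 8.68 to 9.22 in the mice. Cebpe, needed for the secondary granule stage, rose by 1.20 ± 0.07, and Gfi1, a repressor needed for granulocyte development, by 1.14 ± 0.13; both are named here after their values were seen. Nr4a1 (-1.90 ± 0.11), Zeb2 (-1.58 ± 0.12) and Rara (-1.27 ± 0.13) fell. Across the mice Gfi1 had r = 0.691 with the mean of the 4 granule genes and Cebpe r = -0.10. Cebpe varied little, between 11.13 and 11.34. The mean of the 6 factors, which joins genes of opposite direction, had r of 0.01 to 0.194 with the 4 genes. Mouse 6 decides these values: without it r was 0.630 with Ctsg, 0.768 with Mpo, 0.785 with Prtn3 and 0.641 with Elane (exact permutation, adjusted p of at least 0.3306), and without the 2 farthest mice it was 0.428 to 0.932.

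The named cell division genes were higher in the tumour-bearing mice. Being named required a listed change on these same samples, so their count and limma p values are no separate evidence. Over all rows 14.3% rose. A named row was present for 23 of the 25 mitosis genes, and each of the 23 rose, by 1.42 to 2.48, with a median of 2.09 and limma adjusted p between 9.565e-06 and 9.326e-05. The largest of these rises were 2.48 ± 0.16 for Bub1, a spindle checkpoint kinase, 2.47 ± 0.13 for Cenpe, a motor at kinetochores, 2.45 ± 0.11 for Prc1, which bundles microtubules, and 2.43 ± 0.13 for Kif4, a motor on chromosomes. The mean of the 23 ran from 9.13 to 9.53 in the mice and from 7.05 to 7.40 in the pools. Over the mice it had r = 0.891 with Ctsg, 0.791 with Mpo, 0.744 with Prtn3 and 0.654 with Elane, and rho of 0.714 to 0.829. None of these relations passed the adjustment (exact permutation, adjusted p = 0.0687 to 0.2861). Without mouse 6 the r with Elane was 0.368, and without the 2 farthest mice r was 0.213 to 0.704 over the 4 genes.

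**Figure D5:**
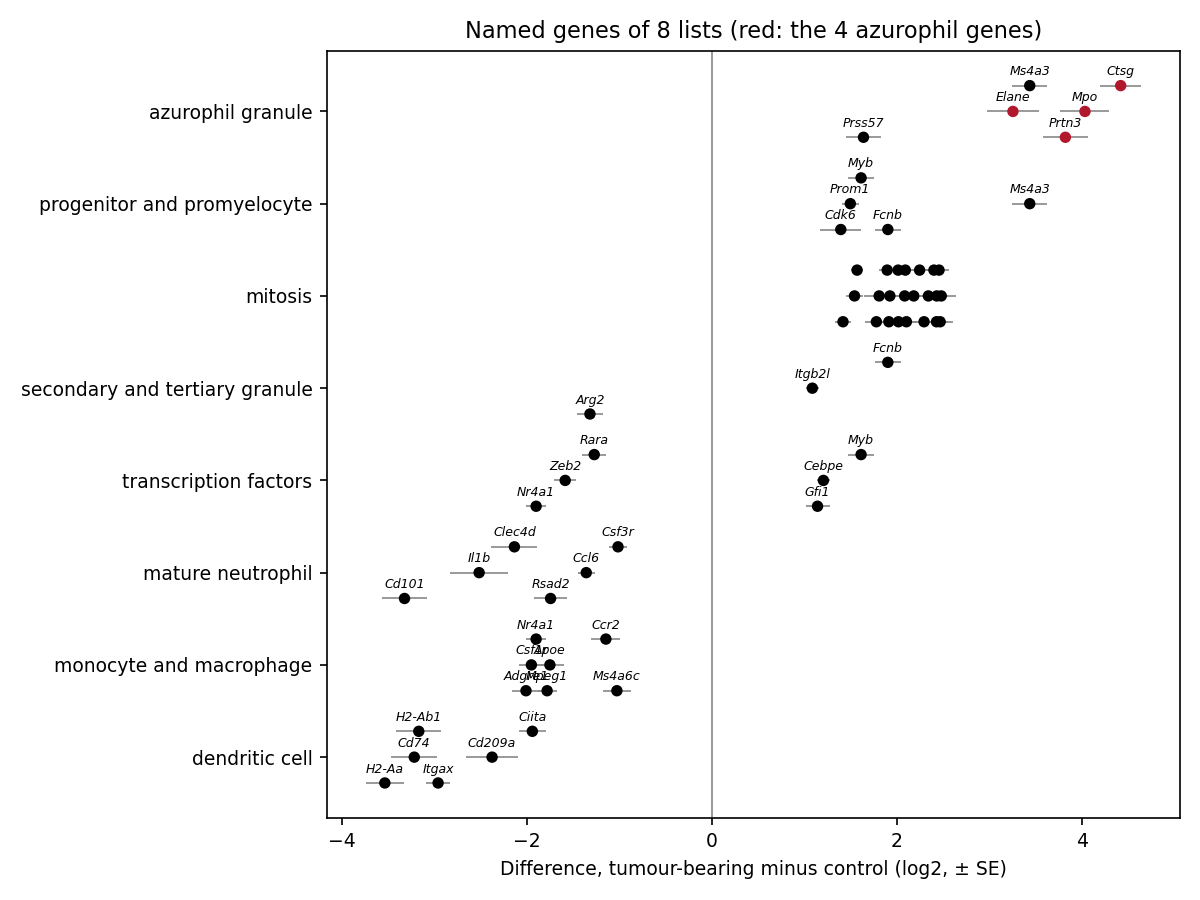
Difference between tumour-bearing mice and control pools (x axis, log2, bars ± SE) for the named genes of 8 lists (y axis); each point is a gene and the 4 granule genes are red. The 4 lie at 3.25 to 4.42, to the right of the 23 mitosis genes at 1.42 to 2.48. The genes of the mature neutrophil, monocyte and dendritic cell lists lie below 0.

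Most named markers of other cells that the sort could hold were lower in the tumour-bearing mice. Here and for the other cells below, a named gene is one that the authors listed as changed on these samples. That each passed limma is therefore no separate result, and 8.83% of all rows fell. The 6 named genes among 21 listed for mature neutrophils each fell, with a median difference of -1.94 and limma adjusted p of 3.349e-05 to 0.00053. The largest falls were in Cd101 (-3.32 ± 0.24), an inhibitory receptor, and the cytokine gene Il1b (-2.51 ± 0.31). The lectin gene Clec4d (-2.13 ± 0.25) and Rsad2 (-1.74 ± 0.17) came next. Whether these genes are particular to mature neutrophils was not tested, and the fall is not read as a loss of those cells. The mean of the 6 genes ran from 8.42 to 9.25 in the mice and from 10.82 to 10.95 in the pools. Across the mice that mean had r of -0.367 to -0.02 with the 4 granule genes (unadjusted exact permutation p of at least 0.4778). Without mouse 1 its sign turned, with r of 0.162 to 0.324.

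The 20 markers of monocytes and macrophages included 7 with a name, each of which fell (median -1.78, limma adjusted p of 1.587e-05 to 0.0012). Examples were Adgre1 (-2.01 ± 0.15), Csf1r (-1.95 ± 0.13), Nr4a1 and Mpeg1 (-1.78 ± 0.10). Their mean ran from 8.20 to 8.68 in the mice and from 9.95 to 10.11 in the pools, and had r of -0.823 to -0.683 with the 4 genes across the mice. The relation with Mpo had an unadjusted exact permutation p of 0.0431 and did not pass the adjustment (adjusted p = 0.122), and without the 2 farthest mice r was -0.196 to 0.395, so the relation rests on those mice. Among 15 markers listed for dendritic cells the 6 named ones each fell (median -3.06, limma adjusted p of 9.897e-06 to 0.0004218). The largest falls were in H2-Aa (-3.53 ± 0.20), Cd74 (-3.21 ± 0.25), H2-Ab1 (-3.17 ± 0.24) and Itgax (-2.96 ± 0.13). H2-Aa, H2-Ab1, Cd74 and Ciita are genes of the MHC class II pathway, which other cells express too. The fall is therefore not read as one of dendritic cells. The mean of the 6 genes ran from 6.62 to 7.32 in the mice and from 9.60 to 9.94 in the pools. It had r of -0.641 to -0.585 with the 4 genes (exact permutation, adjusted p = 0.2982 to 0.3649). These values rest on mouse 6, without which r was -0.09 with Ctsg, 0.01 with Mpo, 0.167 with Prtn3 and 0.440 with Elane, and without the 2 farthest mice r was -0.05 to 0.593. The part of these other cells in the rise of the 4 genes was not tested.

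Cathepsin G is also made by mast cells in humans, so markers of basophils and mast cells were listed too. Of 14 such genes Ms4a2, a chain of the IgE receptor, was the only one named, and it rose by 1.46 ± 0.15 (limma adjusted p = 0.0002129), from 4.83 to 5.22 in the pools to 6.21 to 6.85 in the mice. Its r with the 4 genes over the mice was -0.108. Of 17 B, T and NK cell markers Cd22 was named, and fell (-2.20 ± 0.11, limma adjusted p = 1.333e-05). Of 14 erythroid and megakaryocyte markers Tfrc rose (1.21 ± 0.23, limma adjusted p = 0.004502) and Thbs1 fell (-1.21 ± 0.18, limma adjusted p = 0.001355). None of 10 eosinophil markers was named. Since most genes of these lists have no named row, the content of other cells was not measured here beyond these genes.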

How the data were processed

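CD11b+Gr1+ spleen cells were sorted into lysis reagent, and total RNA was amplified, biotin-labelled and hybridised to Affymetrix arrays, per the labels' protocols. The deposited log2 values were normalized across arrays by the authors. RMA, PLIER, Affymetrix Power Tools and the build mm9 appear in the submitters' processing notes. Their versions are not stated, and neither is the one of these methods that gave the deposited numbers. Their log2 scale was read from the values. Arrays hold no molecule counts, so the number of arrays (6 and 3) limits the precision.

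Each of the 964 rows of the authors' deposited table matched exactly 1 of 31648 rows of the value table to 5 decimals. The other 30684 rows were tested but are unnamed. Names were updated through the RefSeq table of GRCm38.p6: accession matched 717 rows, symbol 114 and synonym 52, while 81 rows keep the name that the table gives. Where a gene had several rows, the row of highest mean was used.

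All rows were fitted with limma 3.58.1 in R 4.3.3 (lmFit, eBayes, two-sided), adjusted by Benjamini-Hochberg, with a threshold of 0.05. Correlations across the 6 mice used exact permutation over all 720 orders (Python 3.11.15, numpy 2.4.6). The 15 lists hold 229 genes, of which 62 have a named row. The named genes are the 4 granule genes, at most 4 per list, ordered by absolute difference, the 5 of highest and 5 of lowest correlation with the 4 genes, and their neighbours on the chromosome; Cebpe, Gfi1, Cdk6, Itgb2l and other genes outside this rule were named after their values were seen. Genes and lists were chosen with earlier results of these data known. The labels call the samples biological replicates. Replicate numbers are not stated to pair a mouse with a pool, so the samples were treated as unpaired. Deviations from the group means correlated by 0.0943, 0.0067 and 0.0232 between samples of the same number.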

Additional observations from a re-analysis of the deposited data

Results flagged for a closer look

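Among 71 genes examined, 2 had a tumour-bearing mouse that stood apart from the other mice, where about 3.5 would by chance. Abca9 stood at 6.72 in mouse 6 and between 5.95 and 6.23 in the others, its distance to the nearest mouse being 0.639 of the range over the mice, and all mice lay below the pools at 8.60 to 9.06. It was examined because of its low correlation with the 4 granule genes, which are lowest in mouse 6, so the chance rate does not hold for Abca9. Cebpe stood at 11.34 in mouse 3 and between 11.13 and 11.20 in the others, a gap of 0.65 of the range, and all mice lay above the pools at 9.84 to 10.10. For the 4 granule genes the gap of mouse 6 was 0.430 to 0.573 of the range, under the critical value for 6 samples.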

How the results depend on the processing

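Under median centring, quantile normalization, a pseudocount of 16, group medians, the replicate block and leaving out each sample, the differences of the 4 genes moved by less than 1 SD, pooled over both groups: 4.25 to 4.65 for Ctsg, 3.74 to 4.23 for Mpo, 3.50 to 4.04 for Prtn3 and 2.85 to 3.47 for Elane. The replicate block, fitted on the 3 shared numbers, gave 4.65, 4.21, 3.94 and 3.35. Each gene has 1 row, so a mean over rows gave no other value. Of the 58 other named list genes 33 or 34 rose and 22 to 24 fell under every alternative run, against 34 and 24. These 58 have a name because the authors selected them for change on the same samples, so this stability was largely given by that choice. The count of 7333 changed rows (4538 higher, 2795 lower) became 3800 (2472 and 1328) with a separate variance for each group and 4289 (2815 and 1474) with the replicate block, and lay between 6606 and 7584 under the other 6 alternatives and between 6201 and 7113 without 1 sample. The methods' t-test passed 969 rows at the authors' thresholds and 6606 after Benjamini-Hochberg adjustment. The 6 correlations between the genes and the 4 with the progenitor list passed as deposited, median centred and quantile normalized. By Spearman's rho 0 pairs and 0 list relations passed, and leaving out any 1 mouse also gave 0 and 0. No detection call was available, which limits what can be said of rows of low signal.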
